A study of Mus musculus with 18 samples.

Results

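The livers of the 6 untreated mice of a study of bisphenol A were examined for the genes their arrays read brightest, for how much the animals differed from each other, and for which genes differed together. The 6 arrays are those labelled as control liver, numbered 1 to 6, out of 18 arrays in the series, and the number of each mouse is the replicate number of its label. The control mice were male CD-1 mice, an outbred stock, aged 9 weeks, that had eaten a powdered diet with no bisphenol A (0 µg/kg/day) for 28 days. The other 12 mice, 6 at 50 and 6 at 5000 µg/kg/day for the same time, entered only through the spread within each of those groups, and no level is compared between doses. All 18 mice ate the same base diet, which holds 49% starch, 24.4% sucrose, 14% casein and 2.5% each of arachis and canola oil by weight, so the controls are mice on a sugar-rich purified diet and not on chow. Each array carries the RNA of a fragment of about 100 mg from the large lobe of 1 liver, and food was freely available. The hour of killing and the time since the last meal are not given in the sources used here.

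The liver is built mainly of hepatocytes, which secrete most plasma proteins, make bile acids, cholesterol and fatty acids, and break down foreign compounds with cytochrome P450 enzymes. Between the hepatocytes lie Kupffer cells, the resident macrophages of the liver, together with sinusoidal endothelial cells, stellate cells and bile duct cells. Many hepatocyte genes follow feeding and fasting, the time of day, growth hormone pulses, sex and inflammation, so that a single fragment taken at a single moment is a snapshot of each animal. Which of these states differed between the mice is not recorded in the labels.

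A level here is the log2 spot intensity after the scanner software's background subtraction, minus the log2 75th percentile of the same array, so that 1 unit is a 2-fold difference and 0 is the array's 75th percentile. The 75th percentile lay between 178.5 and 305.5 intensity units on the 6 arrays (mean 230.1 ± 43.1, SD, n = 6), lowest in mouse 1 and highest in mouse 2. Between 55.1% and 60.2% of the 41174 probes were well above background on an array. The number of arrays limits the precision: an SD over 6 mice has an error of about 31.6% of itself. Arrays whose file headers give the same extraction time were taken as lying on 1 slide, and no other mark of the slide was used. On this basis the arrays lay on 4 slides, mice 1 and 6 sharing a slide and mice 3 and 4 another. Mice 1, 4 and 5 lay at position 1 of their slide and mice 2, 3 and 6 at position 4.

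The array of mouse 1 stands apart in a dim corner (its last rows, from row 500 of 532, and last columns, from column 64 of 85). There, 45 of 287 probes that 12 or more of the 18 arrays read well above background lay at least 4-fold (2 log2 units) below the median of the other arrays, against 0 to 3 on each of the other 17 arrays. Of the 25 named genes of largest SD, 6 are read from spots in that corner, and 10 of the first 100. Gtf2a2, which encodes a subunit of a general transcription factor, read -2.84 in mouse 1 and 2.38 to 2.58 in the other 5, while its other probes, elsewhere on the array, had SDs of 0.08 and 0.19. The other 5 are Unkl, Banp, Nme1, Mast2 and Rin2. These genes are marked where they appear and are counted apart from here on, a choice made after the data were seen.

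Defining markers fitted the label of male liver. Among 16 reference genes, all measured, the median SD was 0.16 and none had an SD over 0.5; Gapdh had an SD of 0.12, Actb 0.17 and Tfrc, the transferrin receptor and the most variable of them, 0.36. The Y-linked genes Ddx3y and Eif2s3y were well above background on all 6 arrays with SDs of 0.17 and 0.16, and Xist, the RNA of the inactive X chromosome, was well above background on none. Of 7 measured hepatocyte markers, the median deviation from their own means stayed between -0.13 and 0.00 in every mouse. Of the markers of tissues that a dissection could carry along, 5 of 8 adipocyte, 4 of 10 pancreatic acinar and 3 of 8 skeletal muscle genes were well above background on no array, and 2, 4 and 3 were so on all 6.

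The brightest probes were those of secreted and metabolic liver proteins. Among the 20 brightest named genes were Ces3b and Ephx2 (hydrolases), Mup3 and Mup1 (major urinary proteins, pheromone carriers), Ambp, Serpina1d, Serpina3k, Ahsg, Selenop, Apoa2, F2 and Fgg (plasma proteins, the last being prothrombin and a fibrinogen chain), Pigt, Gstm1, Akr1c6, Fabp1, Fth1, Rps18 and Rplp1. The mean levels of the 20 lay between 8.19 (Serpina3k) and 8.61 (Ces3b), and each of them was saturated on at least 1 of the 6 arrays. Brightness also depends on the probe, so this order is not an order of transcript numbers. For 18 of 24 plasma protein genes on the array, albumin, apolipoprotein A-I and haptoglobin among them, every well-read probe was saturated on some control array, and their spread cannot be read. The saturated probe of Alb, for instance, read from 7.74 in mouse 2, the brightest array, to 8.29 in mouse 1, the dimmest. The 6 plasma protein genes that could be read had a median SD of 0.15, with Apoc3 (0.11), Kng1 (0.11) and Ttr (0.09), a thyroid hormone carrier, among the steadiest. Apob, which encodes the core protein of very-low-density lipoprotein, had the largest SD of them at 0.52. It read 4.72 in mouse 2 and 5.70 to 6.12 in the other 5.

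Most genes differed little between the animals. The spread was measured for 14411 genes, each read from its brightest probe among those well above background on all 6 arrays and saturated on none. The median SD was 0.214, and the median gene spanned a 1.48-fold range from its lowest to its highest mouse. An SD of 0.104 marked the 10th percentile and 0.549 the 90th. Over 0.5 were 1795 genes, or 12.5%, and over 1 were 188, or 1.3%. Probes spotted 10 times on each array gave the noise between spots: the median SD between spots of an array was 0.0715 to 0.0908, against 0.283 between mice for the same 150 probes. Noise of extraction, labelling and hybridisation is not part of the first value, since each mouse has 1 array.

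**Figure D1:**
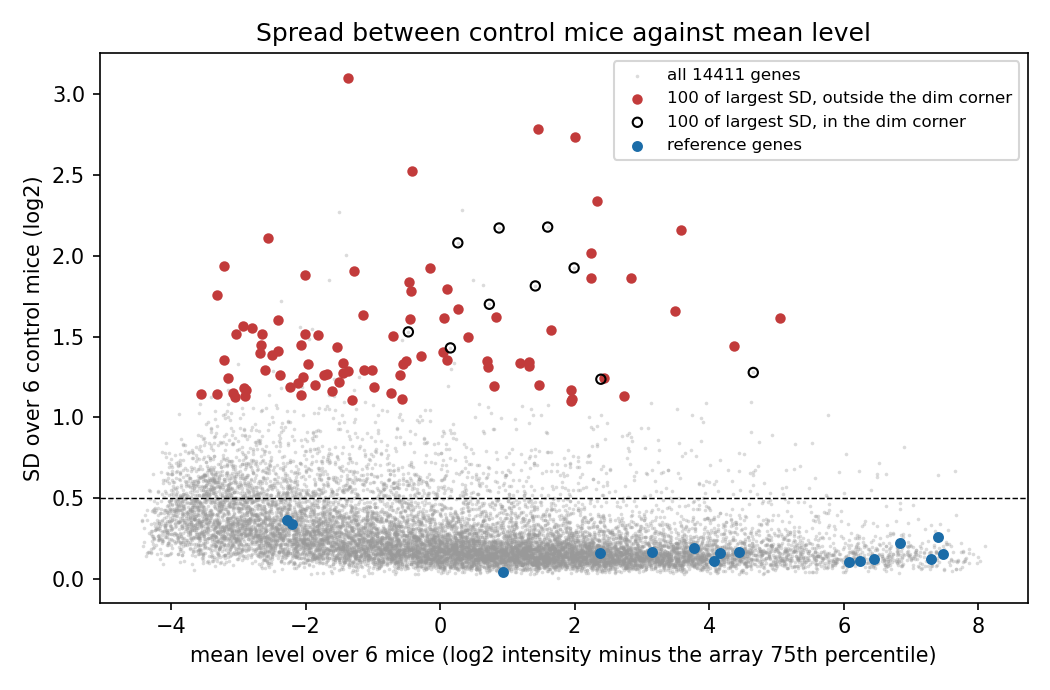
SD over the 6 control mice (log2) against the mean level of each of the 14411 genes measured; red, the 100 named genes of largest SD outside the dim corner of array 1; open circles, those inside it; blue, the reference genes; the dashed line is an SD of 0.5. Most genes lie near the median of 0.214, and all 16 reference genes lie below the line.

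The steadiest named genes were picked by their SD over the 6 mice. Vav2, a guanine nucleotide exchange factor, had the smallest SD, 0.022, and lay between -1.16 and -1.11 in the 6 mice. Mcm3ap, Uri1, Fars2, Polr2h, Arid1b, Phf7, Cct5, Mrpl27 and Oma1 followed, with SDs of 0.029 to 0.034. Among these are a chaperonin subunit (Cct5), an RNA polymerase subunit (Polr2h), a mitochondrial ribosomal protein (Mrpl27) and a mitochondrial tRNA synthetase (Fars2). These genes were picked for the smallest values, so their SDs in the controls are likely too low. In the low-dose and high-dose mice Vav2 had SDs of 0.22 and 0.18, and Cct5 of 0.04 and 0.13.

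The genes of largest SD outside the dim corner were mostly not steady in the other mice either. Of 90 such genes among the first 100, 82 had an SD over 0.5 in the 6 low-dose mice, where 14.1% of all genes did, and 82 of 89 in the 6 high-dose mice, where 16.5% did. Their median SD was 1.36 in the controls, which chose them, 1.11 in the low-dose and 1.24 in the high-dose mice. Of the 10 genes in the dim corner, 1 of the 9 measured in the low-dose mice had an SD over 0.5 there, and 0 of 10 in the high-dose mice. The last of the 100 genes had an SD of 1.10, as did the next gene, just outside. For 15 of the 90 genes the array holds other readable probes, 22 in all. Of these, 15 had an SD over 0.5 (7.78% of all such probes) and 14 had r over 0.9 with the first probe (10.7% of all).

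**Figure D2:**
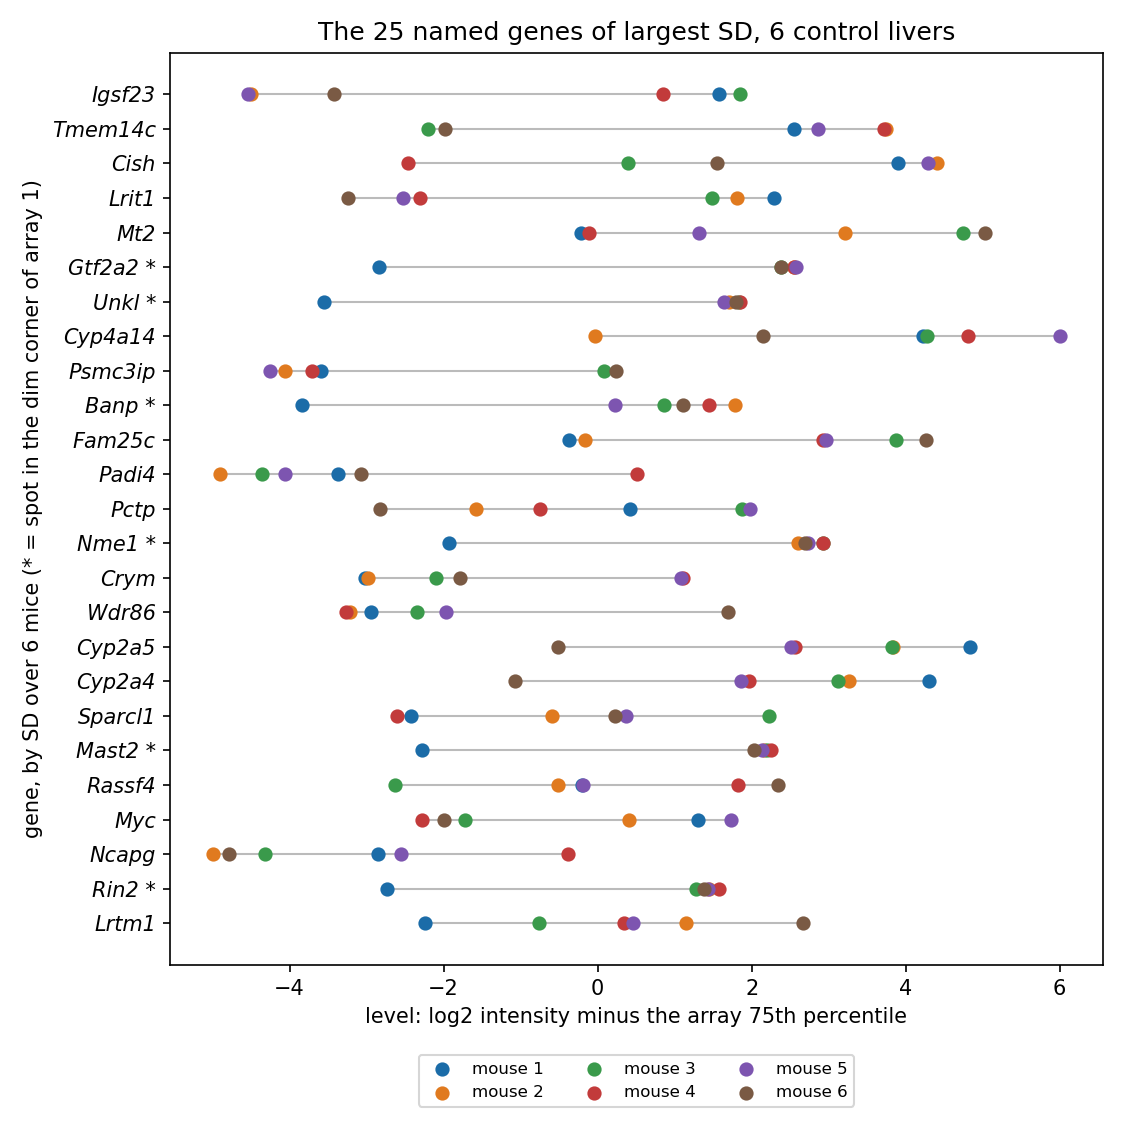
Level (log2 intensity minus the array's 75th percentile) of the 25 named genes of largest SD, 1 point per control mouse, lines from the lowest to the highest mouse; an asterisk marks genes whose spot lies in the dim corner of array 1. Igsf23, Tmem14c, Lrit1 and Psmc3ip show 2 sets of mice with a wide gap, while Cish, Cyp4a14 and Pctp are spread along the scale; the 6 marked genes are low in mouse 1 alone.

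Several of the most variable genes read at 2 separate levels rather than along a range. Igsf23, an immunoglobulin superfamily gene (probe at chr7:19096771-19097752, mouse build mm8), read 1.58, 1.85 and 0.85 in mice 1, 3 and 4 and -4.50, -4.54 and -3.43 in mice 2, 5 and 6. No mouse lay between these levels, the range was 84.0-fold, and the SD was the largest of all genes. Its SD was 3.00 in the low-dose and 2.40 in the high-dose mice. Tmem14c, a mitochondrial membrane protein of heme synthesis (chr13:41033189-41033248), read -2.20 and -1.98 in mice 3 and 6 and 2.55 to 3.74 in the other 4 (SD 2.78). Lrit1, a leucine-rich repeat gene best known from the retina (chr14:35976094-35976153), read 2.29, 1.81 and 1.48 in mice 1, 2 and 3 and -2.30, -2.53 and -3.24 in mice 4, 5 and 6 (SD 2.53). Psmc3ip, a meiotic recombination factor, read 0.08 and 0.23 in mice 3 and 6 and -4.26 to -3.59 in the others. Crym, a thyroid hormone-binding protein, read 1.11 and 1.08 in mice 4 and 5 and -3.03 to -1.79 in the others. Tmem14c and Psmc3ip both set mice 3 and 6 apart, in opposite directions, while the sets of the other genes differed. For each of these 5 genes the SD was at least 1.56 in both dosed groups. Whether the sequence under a probe differs between these outbred mice was not tested.

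Of the other genes among the 25, Fam25c read -0.38 and -0.16 in mice 1 and 2 and 2.92 to 4.27 in the rest. Pctp, a phosphatidylcholine transfer protein, ran from -2.83 in mouse 6 to 1.98 in mouse 5 with no wide gap. Padi4, a peptidylarginine deiminase of granulocytes, was high in mouse 4 alone, at 0.51 against -4.91 to -3.07, and its SD was 0.74 without that mouse against 1.94 with it. Wdr86 was high in mouse 6 alone, at 1.69 against -3.27 to -1.97, and its SD was 0.57 without that mouse against 1.88 with it. Ncapg, a condensin subunit, ran from -5.00 in mouse 2 to -0.38 in mouse 4, and its SD of 1.75 was 1.13 without mouse 4. Rassf4, a Ras association domain protein, ran from -2.64 in mouse 3 to 2.34 in mouse 6. The other probes of Rassf4, 3 in number, each gave their lowest value in mouse 3 as well. Lrtm1 ran from -2.24 in mouse 1 to 2.67 in mouse 6.

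Among the 100 genes, 15 groups of 3 or more varied together (average linkage on 1 minus Pearson r, 74 genes in all). Since the groups were built from these values, they are described and not tested. The first group is the 10 genes of the dim corner. Of the others, 2 held 7 genes. The first of these holds Cish and Socs3, feedback inhibitors of cytokine and growth hormone receptors, Myc and Egr1, early-response transcription factors, Gadd45g, Phlda1 and Ankrd37. Their mean deviation was 1.55, 1.20 and 1.32 in mice 1, 2 and 5 and -1.14, -2.18 and -0.76 in mice 3, 4 and 6. With the dim corner left out there were 19 groups. These 7 genes again formed one, while Car3 left Fam25c, Gdf10 and Bcl7c for a group with Bhlha15 and Arl4d.

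Cish showed the widest range of any named gene among the 25, 117-fold. It read 3.90, 4.41 and 4.29 in mice 1, 2 and 5, then 1.55 in mouse 6, 0.40 in mouse 3 and -2.46 in mouse 4. Its SD was 2.73 here and 1.32 and 1.55 in the low-dose and high-dose mice. Cish is a textbook target of the growth hormone receptor through STAT5, a factor that binds TTCNNNGAA, and its promoter is shown because it heads this group. In the window from 250 bases before to 50 after the start of the gene (RefSeq, GRCm38.p6, chr9:107296409-107296708, + strand), the capitals mark the 2 matches, which 0.457% of 32851 mouse promoters of that length hold at least as many of (8.3% hold 1 or more; the motif reads alike on both strands).
Cish promoter: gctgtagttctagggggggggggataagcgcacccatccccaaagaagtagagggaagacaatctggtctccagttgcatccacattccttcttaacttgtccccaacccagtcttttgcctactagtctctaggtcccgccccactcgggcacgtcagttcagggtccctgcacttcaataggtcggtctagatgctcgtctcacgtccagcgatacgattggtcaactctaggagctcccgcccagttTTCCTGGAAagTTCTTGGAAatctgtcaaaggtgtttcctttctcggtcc

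The letters are a match and not a shown binding site. Counted as bases before the start of the gene, the matches begin at 0 and -11, so neither lies upstream of the RefSeq start. No other start was examined. Gadd45g, a stress-response gene, read 7.03, 5.85 and 6.03 in mice 1, 2 and 5 and 4.67, 2.42 and 4.35 in mice 3, 4 and 6. Myc followed the same order of sets, at 1.30, 0.40 and 1.73 against -1.72, -2.28 and -1.99, and its other probe had an SD of 1.74. Phlda1 read 5.47 to 6.01 in mice 1, 2 and 5 and 2.89 to 3.27 in the other 3. These genes were grouped on the values given here, which fixes their shared order. Mice 1 and 6 shared a slide, as did mice 3 and 4, and both slide positions occur on either side.

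The metallothionein genes, which bind zinc and copper and respond to metals and glucocorticoids, formed another group with Psmc3ip, Sparcl1 and Scamp5. Mt2 (chr8:97062600-97062659, mm8) read 5.03, 4.74 and 3.21 in mice 6, 3 and 2, 1.32 in mouse 5, and -0.12 and -0.21 in mice 4 and 1. Mt1 (chr8:97069240-97069299, mm8) read 3.77, 3.04 and 1.78 in mice 6, 3 and 2, 1.25 in mouse 5, and 0.15 and -0.09 in mice 1 and 4. The other Mt1 probe, dimmer and with r = 0.86 to the first, read -1.78 in mouse 6, -2.81 in mouse 3, -3.50 in mouse 1, -3.80 in mouse 5, -3.95 in mouse 2 and -4.53 in mouse 4. The ranges were 37.8-fold for Mt2 and 14.6-fold for Mt1. SDs were 2.34 and 1.54 in the controls, 2.92 and 2.48 in the low-dose and 2.11 and 2.51 in the high-dose mice. Mice 2, 3 and 6, the 3 highest by Mt2 and by the brighter Mt1 probe but not by the dimmer one, are also the 3 arrays at slide position 4: Mt2 was higher there by 4.00 ± 0.60 (SE) on the log2 scale, with an adjusted p of 0.773 in limma. On position 0 of 14411 genes passed (0%), and 739 (5.13%) had an unadjusted p under 0.05. Position and animal cannot be told apart for these mice. The promoters of both genes are shown because the pair is tested below. They lie in RefSeq GRCm38.p6 at chr8:94178839-94179138 and chr8:94172368-94172667, both on the + strand. Capitals mark TGCNCNC, the core of the metal response element, on either strand (as GNGNGCA on the other).
Mt1 promoter: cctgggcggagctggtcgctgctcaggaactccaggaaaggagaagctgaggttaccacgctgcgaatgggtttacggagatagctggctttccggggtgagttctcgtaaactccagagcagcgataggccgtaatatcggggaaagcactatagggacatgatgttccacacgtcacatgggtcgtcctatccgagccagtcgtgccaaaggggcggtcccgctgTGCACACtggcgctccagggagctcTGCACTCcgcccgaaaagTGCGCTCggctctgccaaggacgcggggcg
Mt2 promoter: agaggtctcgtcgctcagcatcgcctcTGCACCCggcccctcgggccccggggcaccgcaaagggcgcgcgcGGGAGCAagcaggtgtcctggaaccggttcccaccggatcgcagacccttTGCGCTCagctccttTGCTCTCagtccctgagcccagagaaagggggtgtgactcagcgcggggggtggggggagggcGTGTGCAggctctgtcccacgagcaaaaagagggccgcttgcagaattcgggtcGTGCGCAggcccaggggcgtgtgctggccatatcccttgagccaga

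The window of Mt1 holds 3 matches and that of Mt2 holds 6, overlapping none of each other. Counted as bases before the start, those of Mt1 begin at 23, -2 and -20, and those of Mt2 at 223, 178, 128, 113, 50 and -4. Negative values lie past the RefSeq start. Whether transcription begins there in these livers was not examined, so the values do not place the matches inside a transcript. Of all promoters of the same length, 51.0% hold at least 1 match, 7.1% at least 3 and 0.697% at least 5.

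The other groups were smaller. Lrit1, Cyp2a5, Cyp2a4 and Sdr16c5 were highest in mice 1, 2 and 3. Cyp2a5, a P450 that oxidises coumarin and nicotine, read 4.84 in mouse 1, 3.83 in both mice 2 and 3, 2.57 and 2.51 in mice 4 and 5 and -0.51 in mouse 6, a 40.7-fold range. Cyp2a4, its near-identical neighbour and a testosterone hydroxylase, gave the same order of mice, from 4.31 to -1.08, and without mouse 6 their SDs, both 1.86, were 0.98 and 1.01; the probes of such copies can bind both transcripts, so the pair is not independent. Car3, a carbonic anhydrase, Fam25c, Gdf10 and Bcl7c were lowest in mice 1 and 2, Car3 reading 1.17 and 2.43 there against 2.64 to 5.47. Igsf23, Gpr12, Rbm45 and Cfap53 were highest in mice 1, 3 and 4. Tmem14c, Tsc22d4 and Mospd3 were lowest in mice 3 and 6; the other probe of Tsc22d4 had an SD of only 0.31. Wdr86, Apol10a and Orm3, an acute phase orosomucoid, were highest in mouse 6.

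Cell type marker lists showed which differences ran through many genes. Lists were described by the median deviation of their measured members from their own means in each mouse, beside the share of members with an SD over 0.5, which was 12.5% over all genes. These lists, like the genes above, were drawn up with earlier results of these data known, and no list was tested. The mice named as highest or lowest were also picked separately for each list, with its values known. The share of all genes beside such a count is for those same mice, so it makes no allowance for that choice.

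**Figure D3:**
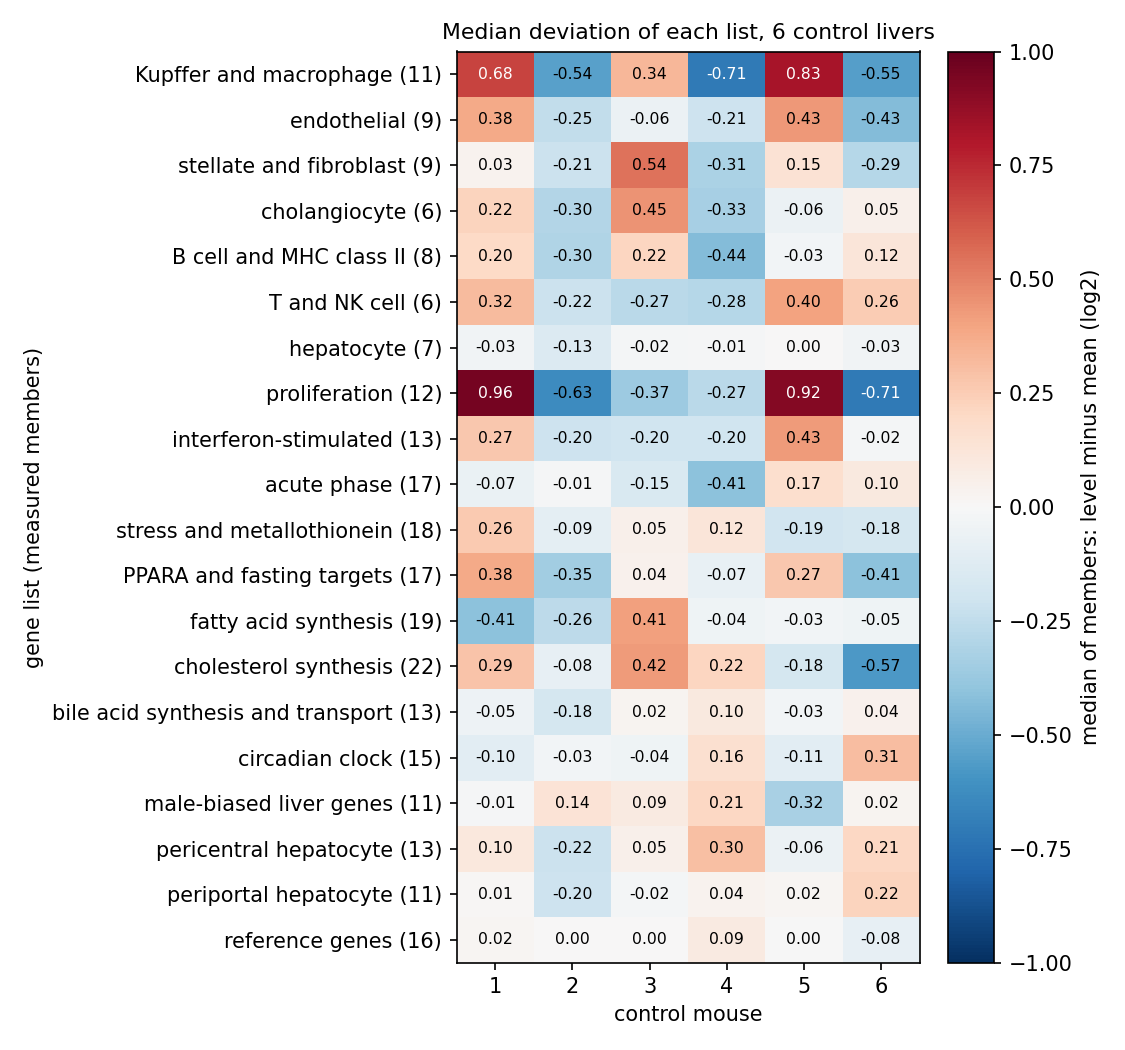
Median over the measured members of each list of the level minus the gene's mean over 6 mice (log2), for each control mouse; red, above, and blue, below; the number of members is in brackets. Among the lists drawn, Kupffer cell markers and proliferation genes have the widest range between mice, while the reference genes and hepatocyte markers stay near 0.

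Kupffer cell and macrophage markers varied most among the cell type lists with more than 2 measured members. All 11 markers were measured, 9 of them had an SD over 0.5, and the median SD was 0.68. The median deviation was 0.68, 0.34 and 0.83 in mice 1, 3 and 5 and -0.54, -0.71 and -0.55 in mice 2, 4 and 6. For 10 of 11 markers, mice 1, 3 and 5 were the 3 highest, an order that 9% of all genes showed. Marco, a scavenger receptor, read 3.23, 2.04 and 2.13 in mice 1, 3 and 5 and 0.79, 0.04 and 0.56 in mice 2, 4 and 6. Adgre1, which encodes the macrophage antigen F4/80, read 1.79, 1.56 and 2.45 against 0.72, 0.24 and -0.11. Vsig4, a complement receptor of Kupffer cells, read 1.83, 1.28 and 2.14 against 0.41, 0.35 and 0.37. Cd5l, a secreted macrophage protein, read 5.21, 4.87 and 5.51 against 3.98, 3.60 and 3.96. For these 4 genes mice 1, 3 and 5 did not overlap with the others. Clec4f, the lectin that defines Kupffer cells, had a smaller SD of 0.49 with mice 1, 3 and 5 again highest. Timd4 was the exception, with mice 5, 1 and 6 highest. In whole liver, more Kupffer cells and more RNA per Kupffer cell cannot be told apart. The median SD of the list was 0.61 in the low-dose and 0.62 in the high-dose mice.

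Mice 1, 3 and 5 lay on 3 slides and at both slide positions. Mice 1 and 6, with deviations of 0.68 and -0.55, shared a slide, as did mice 3 and 4, with 0.34 and -0.71. The 75th percentile intensity was 178.5, 225.7 and 226.5 in mice 1, 3 and 5 and 305.5, 202.2 and 242.4 in mice 2, 4 and 6.

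**Figure D4:**
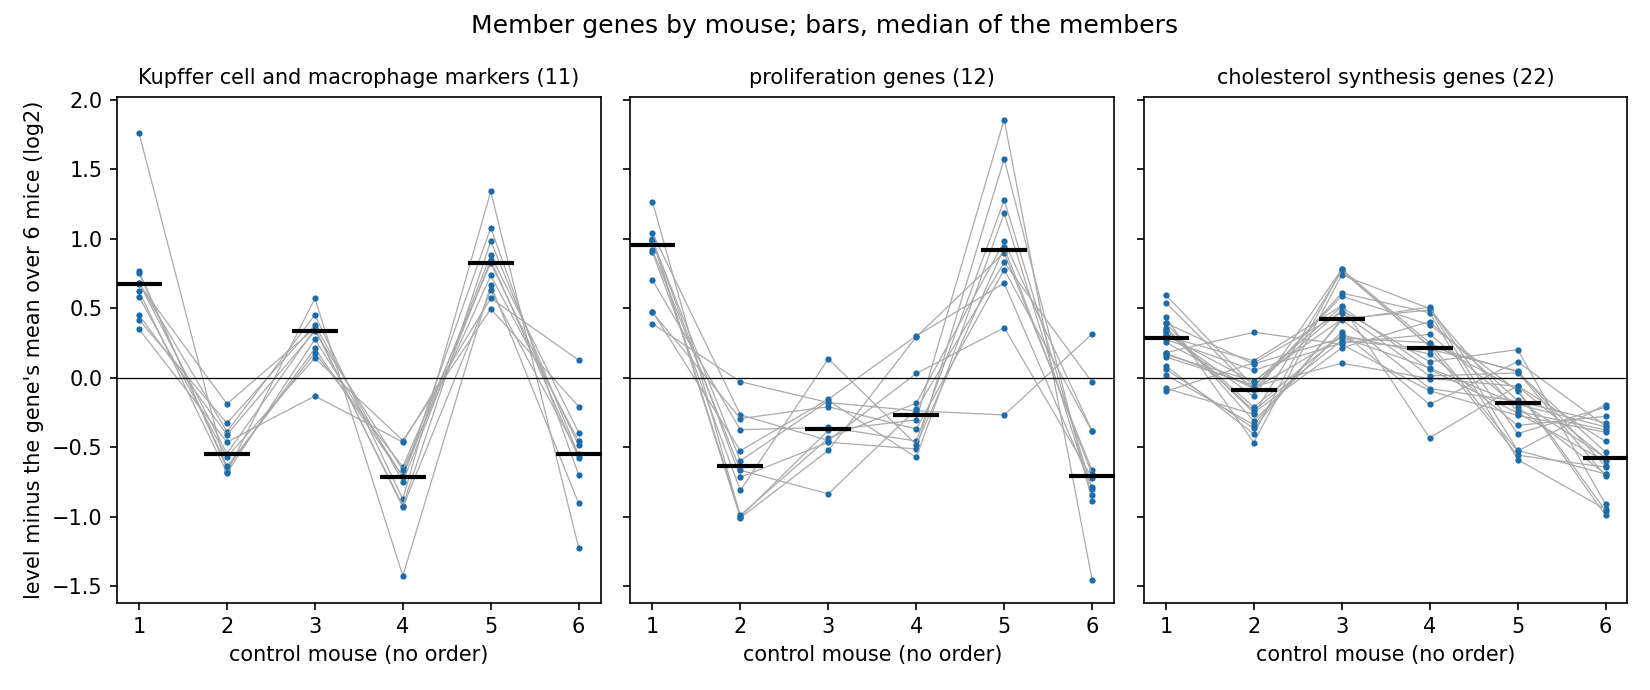
Level minus the gene's mean (log2) in each control mouse for every measured member of 3 lists; 1 thin line per gene, black bars the median of the members. Nearly all Kupffer cell markers are above their mean in mice 1, 3 and 5, proliferation genes in mice 1 and 5, and all 22 cholesterol synthesis genes lie below their mean in mouse 6.

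Proliferation genes separated mice 1 and 5 from the other 4. Of 18 listed, 12 were measured, 10 of these had an SD over 0.5, and the median SD was 0.80. Mice 1 and 5 were the 2 highest for 11 of the 12, an order shown by 9.4% of all genes. Cdc20, an activator of the anaphase-promoting complex, read 0.14 and 0.73 in mice 1 and 5 and -2.58 to -1.43 in the others. Mki67, the Ki-67 antigen of cycling cells, read -0.92 and -0.72 against -2.75 to -2.07. Plk1, a mitotic kinase, read -1.94 and -1.36 against -3.82 to -3.40, and Cdk1 -2.24 and -2.33 against -4.24 to -2.94. Rrm2, the exception, had an SD of 0.29. These probes are among the dimmer ones of the array, with mean levels of -3.23 to 0.40. Mice 1 and 5, together with mouse 4, are the arrays at slide position 1: Cdk1 was lower at position 4 by 1.46 ± 0.23 (SE), with an adjusted p of 0.773 in limma, and the part of position in the list's pattern was not tested. The list's median SD was 0.52 in the low-dose and 0.40 in the high-dose mice. Ncapg, the condensin subunit among the 25 most variable genes, did not follow this order, being highest in mouse 4.

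Endothelial markers spread less, and mice 1 and 5 were again the highest. The median SD of the 9 markers was 0.36, and 1 (11.1%) had an SD over 0.5, against 12.5% of all genes. The median deviation was 0.38 and 0.43 in mice 1 and 5 and -0.43 to -0.06 in the others. Mice 1 and 5 were the 2 highest for 8 of 9, against 9.4% of all genes. Clec4g, a sinusoidal endothelial lectin, read 4.44 and 4.39 there and 3.52 to 3.98 in the others. Lyve1, a hyaluronan receptor, had the largest SD, 0.93, with mice 1 and 3 highest. Stab2, the scavenger receptor of sinusoidal cells, had an SD of only 0.30.

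T and natural killer cell markers were dim, with mean levels of -4.02 to -1.36; 6 of 10 were measured, and their median deviation was 0.32, 0.40 and 0.26 in mice 1, 5 and 6. Of 9 stellate cell and fibroblast genes, 1 (11.1%), the collagen gene Col1a1 (SD 0.84), had an SD over 0.5, against 12.5% of all genes. Mouse 3 was highest for 5 of the 9, against 16.4% of all genes. Col3a1, another collagen gene, read 2.99 in mouse 3 and 1.85 to 2.28 in the others. The 6 bile duct genes measured had a median SD of 0.40, and Spp1, osteopontin, read 4.29 in mouse 3 and 2.81 to 3.42 in the others.

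Of 8 B cell and antigen presentation genes, mouse 4 was lowest for 4 (H2-Aa, H2-Ab1, Cd74 and Cd79b), against 14.8% of all genes. H2-Eb1, an MHC class II beta chain, had an SD of 1.29 and read 0.06 and -0.17 in mice 6 and 1, -1.04 and -1.31 in mice 3 and 2 and -2.86 and -2.94 in mice 4 and 5. H2-Aa, an alpha chain of another class II molecule, had an SD of 0.39 and was highest in mouse 5, at -0.43. Cd74, the invariant chain that accompanies class II molecules, read 1.69 in mice 1 and 6, 1.54 in mouse 5 and 0.44 in mouse 4. Erythroid genes, which follow the blood left in the tissue, had a median SD of 0.34, and the globin gene Hba-a1 read 6.83 in mouse 1, 6.60 in mouse 5 and 5.98 to 6.32 in the other 4.

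All 22 cholesterol synthesis genes were measured. Of these, 4 (18.2%) had an SD over 0.5, against 12.5% of all genes, and the median SD was 0.39. All 22 lay below their own mean in mouse 6 (52.5% of all genes) and all 22 above it in mouse 3 (53.0% of all genes). Mouse 6 was the lowest for 19 of 22, against 18.2% of all genes. The median deviation was -0.57 in mouse 6, -0.18 in mouse 5, -0.08 in mouse 2, 0.22 in mouse 4, 0.29 in mouse 1 and 0.42 in mouse 3. Sqle, squalene epoxidase, read 1.17 in mouse 6 and 1.53 in mouse 5, with 2.03 to 2.73 in the others. Mvd, a decarboxylase of the mevalonate pathway, read -0.11 in mouse 6, 0.06 in mouse 5, 0.12 in mouse 2 and 1.02 to 1.33 in the rest. Msmo1, a sterol oxidase, read 3.46 in mouse 6 against 4.36 to 5.04.

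The 19 fatty acid synthesis genes measured had a median SD of 0.37, and 3 (15.8%) exceeded 0.5, against 12.5% of all genes. Mouse 3 was highest for 10 of 19, against 16.4% of all genes, as it was for 12 of 22 cholesterol synthesis genes, and mouse 1 was lowest by median deviation, at -0.41. Pnpla3, a lipid hydrolase induced by sugar feeding, read 1.72 in mouse 3 and 0.01 to 0.50 in the others. Thrsp, the lipogenic gene also called Spot 14, was highest in mouse 6, at 4.86, and next in mouse 3, at 4.62, with 3.27 to 4.03 in the rest. Fads2, a desaturase, read 5.35 in mouse 3 and 4.12 in mouse 2.

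Targets of PPARA, the fatty acid receptor active in fasting, had 9 of 17 measured members with an SD over 0.5 and a median SD of 0.50. All 17 lay above their mean in mouse 1 (53.9% of all genes) and 0 in mouse 6 (47.5% of all genes). Cyp4a14, a fatty acid omega-hydroxylase (chr4:114984241-114984300, mm8), led them with a 65.5-fold range. It read 6.01 in mouse 5, 4.81, 4.28 and 4.22 in mice 4, 3 and 1, 2.15 in mouse 6 and -0.03 in mouse 2. Its SD was 2.16 in controls, 2.05 in the low-dose and 3.43 in the high-dose mice, and 1.40 in the controls without mouse 2. Its relative Cyp4a10 spanned only a 1.69-fold range, from 3.89 in mouse 2 to 4.64 in mouse 1. Fgf21, a fasting hormone of the liver, read 3.73 and 3.13 in mice 3 and 1 and 1.51 to 1.86 in the others. Vnn1, a pantetheinase, read 0.33 in mouse 6 and 2.27 to 2.51 in mice 1, 2 and 5. Pdk4, which restrains pyruvate oxidation, was highest in mouse 3, at 2.91, against 0.67 to 1.71.

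The list of glucose production and insulin-suppressed genes varied less than the PPARA targets. Of its 12 measured members, 3 (25%) had an SD over 0.5, against 12.5% of all genes. G6pc, glucose-6-phosphatase, read 6.79 to 6.85 in mice 3, 4 and 6 and 5.41 to 5.90 in the other 3. Tat, a tyrosine aminotransferase induced by glucocorticoids, ran from 5.82 in mouse 5 to 7.55 in mouse 4. Asns, asparagine synthetase, read 1.40 in mouse 3 against -1.01 to -0.36. Trib1 was highest in mouse 5, at 2.37. Of 13 bile acid genes, 2 (15.4%) had an SD over 0.5, against 12.5% of all genes. They were Cyp7a1, the rate-limiting enzyme of bile acid synthesis, and Nr0b2, a nuclear receptor that restrains it. Cyp7a1 ran from -2.12 in mouse 2 to 0.27 in mouse 4 (SD 0.88), and Nr0b2 from 0.06 in mouse 5 to 1.43 in mouse 4. The median SD of the list was 0.20.

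Of 14 measured drug-metabolising P450 genes, 7 had an SD over 0.5. Cyp2c38 ran from -3.47 in mouse 4 to 0.37 in mouse 5, and Cyp2c54 from -0.57 in mouse 3 to 2.05 in mouse 6. Cyp3a13 was highest in mouse 5, at 4.27, and lowest in mouse 6, at 1.72. Cyp3a11, a target of the pregnane X receptor, read 5.52 in mouse 2 and 6.60 to 7.76 in the others. The female-biased relatives Cyp3a16, Cyp3a44 and Cyp3a41a were lowest in mouse 2 as well, at 3.46, 4.73 and 6.52. They are 3 of 6 measured female-biased genes, and mouse 2 was lowest for 21.6% of all genes. Another 10 female-biased genes were too dim on some array to be measured. Probes of the near-identical Cyp3a genes may share transcripts. Cyp2e1, the ethanol-inducible P450, had an SD of 0.33. Sex-biased genes of the male type, which follow the pulses of growth hormone, had a median SD of 0.28, and mouse 5 was lowest for 8 of 11, against 16.8% of all genes. Cyp7b1, an oxysterol hydroxylase, read 5.31 in mouse 5 and 6.43 to 6.72 in the other 5. C6, a complement component, read 3.73 there and 4.39 to 4.73 elsewhere. Elovl3, a fatty acid elongase, read 4.95 in mouse 5 and 5.26 to 6.22 in the others. The only major urinary protein genes with a probe below saturation were Mup3, with an SD of 0.80, and Mup1, with 0.25. That Mup3 probe had a mean level of only 1.35. The bright Mup3 probe named above had a mean of 8.52 and was saturated on 5 arrays, so the SD of 0.80 is not its spread.

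Zonation lists differed in spread. The 13 pericentral genes had a median SD of 0.36, and 4 (30.8%) were over 0.5, against 12.5% of all genes. Tbx3 read 4.14 in mouse 3 and 2.18 in mouse 2, Oat 2.40 in mouse 2 against 3.13 to 4.14. Lgr5 read -1.30 in mouse 3 against 0.06 in mouse 4. Slc1a4, with an SD of 0.61, is read from a spot in the dim corner of array 1, where it was lowest. Glul, glutamine synthetase and the classic pericentral marker, had an SD of 0.37. Of 11 periportal genes, 1 (9.09%) exceeded 0.5. This was Pigr, the receptor that carries IgA into bile, which read 3.90 in mouse 3 and 5.08 to 5.87 in the others.

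Of 17 acute phase genes measured, 9 had an SD over 0.5. Mouse 4 was lowest for 10 of 17, against 14.8% of all genes, with a median deviation of -0.41, and mouse 6 was highest for 6 of 17, against 16%. In mouse 5, 14 of 17 lay above their mean, against 49.4% of all genes. Hamp2, a relative of the iron hormone hepcidin, read 3.30 in mouse 5 and -0.27 to 1.04 in the others. Orm3, an orosomucoid, read -0.31 and -0.85 in mice 6 and 5 and -3.14 to -2.54 in the rest. Fgl1, a secreted fibrinogen-like protein, ran from 4.02 in mouse 4 to 6.49 in mouse 5. The serum amyloid A genes, major acute phase proteins, were highest in mouse 6: Saa2 read 7.85 there and 6.09 to 6.69 in the others, Saa1 7.82 against 5.76 to 6.66, and Saa3 5.48 against 3.37 to 4.33. Of 13 interferon-stimulated genes, all lay above their mean in mouse 5 (49.4% of all genes; median deviation 0.43) and 10 in mouse 1 (53.9% of all genes; 0.27), and mouse 5 was highest for 6, against 14.4% of all genes. Oas1a read -0.77 in mouse 5 and Ifit3 0.31, with -2.23 to -1.24 and -1.46 to -0.14 in the others. The heat-shock genes Hspa1a and Hspa1b had their own order. Hspa1a read 4.11 in mouse 4, 3.14 and 2.94 in mice 1 and 3, 1.97 and 1.96 in mice 5 and 2 and 0.50 in mouse 6. Hspa1b, its near-identical copy, ran from 2.97 in mouse 4 to -0.02 in mouse 6. Probes of such copies can bind both transcripts, so the pair is not independent. The other heat-shock genes measured had smaller SDs: Hsph1 0.67, Dnajb1 0.45, Hsp90aa1 0.32 and Hspa8 0.15.

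Clock genes, which cycle over the day in every liver cell, had 2 of 15 measured members (13.3%) over 0.5, against 12.5% of all genes. Their median SD was 0.27. Dbp, a clock output factor, read 2.03 in mouse 6 and 0.11 to 0.75 in the others. Nr1d1, the receptor REV-ERB alpha, read 0.51 in mouse 6 and -1.19 to -0.25 in the others. Arntl, which encodes BMAL1, had an SD of 0.16 and was highest in mouse 4, at 2.21. Npas2, a partner of BMAL1, was lowest in mouse 6, at -3.91, and Per2 highest there, at -1.48.

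Pairs of genes from known pathways were tested across the 6 mice by exact permutation over all 720 pairings, 2-sided, with p adjusted over the 13 of 16 pairs measured. No slide holds more than 2 of the arrays, so no relation could be computed within slides. Of the 13, 3 passed an adjusted p of 0.05, all positive, and 2 of these are described. Mt1 and Mt2 had r = 0.98 (exact permutation p = 0.00278, adjusted p = 0.0120, n = 6) and rho = 0.94 (exact p = 0.0167, adjusted 0.0722), and r was 0.98 without mice 4 and 6, farthest from the median of Mt1. Saa1 and Saa2 had r = 0.99 (exact permutation p = 0.00278, adjusted 0.0120, n = 6) and rho = 0.94 (exact p = 0.0167, adjusted 0.0722), with r = 0.99 without mice 3 and 6. By rank, neither of these pairs passed after adjustment. The pairs were chosen with results of these data known, so they are no independent evidence.

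**Figure D5:**
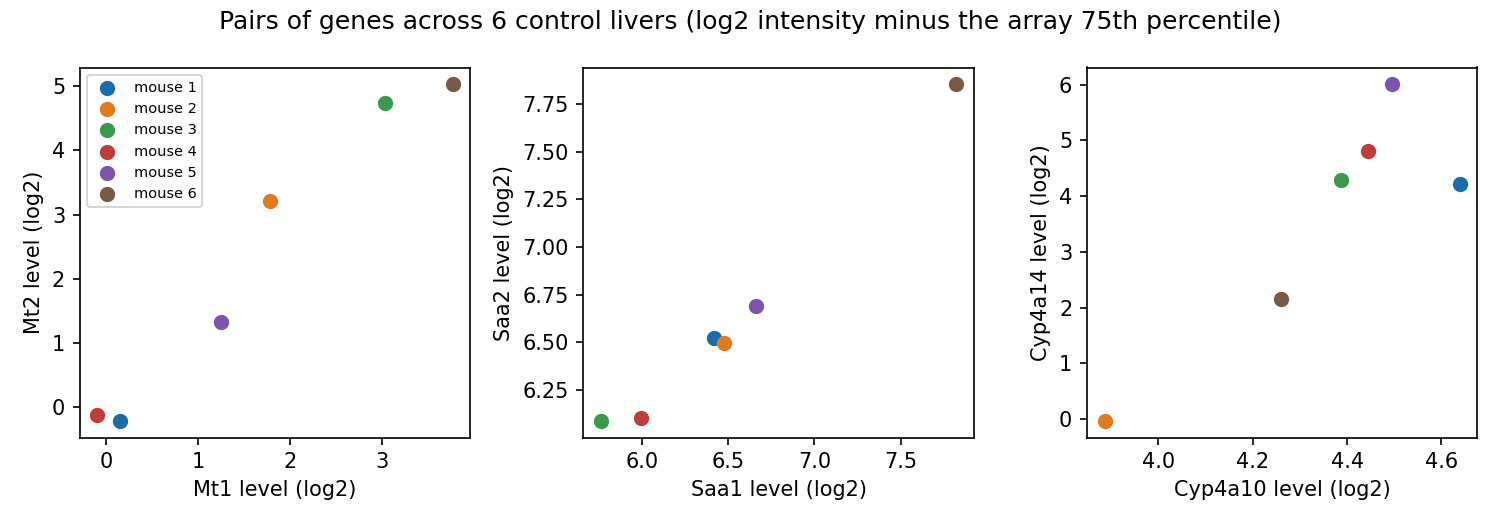
Levels (log2 intensity minus the array's 75th percentile) of 3 gene pairs, 1 point per control mouse in the same colours throughout. Mt1 and Mt2 (r = 0.98) and Saa1 and Saa2 (r = 0.99) passed the adjusted threshold; Cyp4a10 and Cyp4a14 (r = 0.88) did not.

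The genes Saa1 and Saa2 lie next to each other on chromosome 7 in opposite directions. Their promoters are shown because they are nearly the same: 287 of 300 bases stand in common order, against 185 of 300 for Mt1 and Mt2. Gaps were allowed freely in this count, so unlike sequences also share many bases. Its value for unrelated promoters was not measured, and the 185 is no measure of likeness. Capitals mark TTGCNNAA, a motif of C/EBP factors, which drive acute phase genes, searched on both strands (as TTNNGCAA on the other). Each window holds 1 match, as 10.8% of all promoters of that length hold at least 1. The windows are chr7:46742931-46743230 (- strand) and chr7:46751583-46751882 (+ strand) of RefSeq GRCm38.p6. Transcripts of such copies can also share a probe, which was not tested.
Saa1 promoter: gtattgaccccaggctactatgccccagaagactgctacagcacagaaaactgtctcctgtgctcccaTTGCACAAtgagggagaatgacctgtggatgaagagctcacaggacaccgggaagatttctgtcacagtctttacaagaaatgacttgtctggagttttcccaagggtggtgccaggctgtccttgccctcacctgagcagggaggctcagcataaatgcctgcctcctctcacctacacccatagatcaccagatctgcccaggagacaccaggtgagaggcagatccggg
Saa2 promoter: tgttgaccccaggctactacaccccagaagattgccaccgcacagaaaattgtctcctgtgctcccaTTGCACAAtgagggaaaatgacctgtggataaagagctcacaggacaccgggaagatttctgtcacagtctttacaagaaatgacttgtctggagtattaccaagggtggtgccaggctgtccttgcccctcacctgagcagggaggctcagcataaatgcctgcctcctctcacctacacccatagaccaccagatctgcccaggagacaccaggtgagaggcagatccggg

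The other 10 pairs did not pass. Cyp4a10 and Cyp4a14 had r = 0.88 (exact permutation p = 0.0194, adjusted 0.0632, n = 6; rho 0.66, exact p = 0.175) and r = 0.99 without mice 1 and 2; it passed with the array median as scale (r = 0.93, adjusted 0.0316) and without mouse 1 (r = 0.97, adjusted 0.0361). The class II genes H2-Aa and Cd74 had r = 0.90 (exact permutation p = 0.0333, adjusted 0.0867, n = 6; rho 0.49, exact p = 0.356), but r = -0.62 without mice 2 and 4. Dbp had r = 0.54 with Tef, a factor of like phase, and -0.59 with Arntl, of opposite phase, with adjusted exact permutation p of 0.438 and 0.377. Without mice 4 and 6 these were -0.03 and -0.13. Per2 and Nr1d2 had r = 0.22 (adjusted 0.784 by exact permutation). The fed-state pairs Thrsp and Pnpla3 and Thrsp and Elovl6 had r = 0.62 and 0.43, and 0.99 and 0.92 without mice 1 and 6, with adjusted exact permutation p of 0.377 and 0.476. With normexp background correction, Thrsp and Elovl6 had r = 0.91 and passed (adjusted 0.0451 by exact permutation). Sqle and Thrsp had r = -0.40, and 0.29 without mice 5 and 6. Cyp4a14 had r = 0.50 with Pdk4, and -0.59 without mice 2 and 6, and r = -0.05 with Thrsp. For the 10 pairs the adjusted p of rho lay between 0.190 and 0.919 by exact permutation. With 6 mice, a p that misses the threshold does not show that 2 genes are unrelated.

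Fits of all other genes on each of 5 index genes asked which genes followed them across the mice (limma, 14410 genes, Benjamini-Hochberg adjustment). On Dbp, 1 gene passed an adjusted p of 0.05, or 0.00694%: Wdr86, a WD repeat gene, with 2.69 ± 0.18 (SE) log2 units per unit of Dbp, r = 0.99 and an adjusted p of 0.0378 in limma. Both genes stood high in mouse 6 alone, and without any 1 of the 6 mice no gene passed. Nnmt, a nicotinamide methyltransferase, was next (adjusted p = 0.292 in limma), followed by Col5a3, Asb2 and Celsr1. Unadjusted p was under 0.05 for 615 genes, 4.27%.

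On Cyp4a14, 0 genes passed (0%), with 853 (5.92%) at an unadjusted p under 0.05 in limma; the 5 named genes of smallest p, Gstt3, Slco1a4, Ly6c1, Gzmd and Lum, had an adjusted p of 0.816. Thrsp also gave 0 genes (0%), with 598 (4.15%) unadjusted. Its nearest was Pnpla5, a lipid hydrolase of the same fed-state set, with r = 0.99 and an adjusted p in limma near 1, and Trib3, Rgs16 and Mkx were also among the nearest. Saa2 gave 0 genes (0%) and 830 (5.76%) unadjusted. Its 5 nearest were Apol10a, an apolipoprotein L (r = 0.99, adjusted p = 0.178 in limma), Saa1 (0.179), Saa3 (0.280), Sulf2 and, in the opposite direction, the sterol oxidase Msmo1 (r = -0.98, adjusted p = 0.540). On Igfbp1, an insulin-suppressed binding protein of insulin-like growth factors that spanned 4.44 to 5.42, 0 genes passed (0%), but 1312 (9.1%) had an unadjusted p under 0.05 in limma. The 5 nearest were Npl, Rgs19, Plcl2, Sphk1 and Cd34, with adjusted p of 0.171 to 0.265. Igfbp1 itself was highest in mice 5, 3 and 1, the mice with the highest Kupffer cell markers. Data for Dbp were simulated over 14410 genes with independent noise in each gene. Of genes that shared 90% of their variance with the index gene, 2 of 100 were called, and 23 of 100 that shared 99%. There were 0 false calls, but genes that vary together for other reasons were not simulated. False calls among such genes are therefore not measured by it.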

How the data were processed

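Liver RNA of 18 mice was labelled with Cy3 and hybridised to one-colour Agilent mouse arrays, 1 per mouse. Per the file headers, the deposited intensity values are processed spot signals of Agilent's Feature Extraction software, background-subtracted on a linear scale; the submitters' processing notes name version 9.5 of it and limma. The authors' deposited value table holds log2 values and was used as an alternative only. Levels are log2 intensity minus the log2 75th percentile of the array's non-control spots. Spots marked as outliers were left out and repeated spots averaged. A gene is its brightest probe among those well above background on all 6 control arrays and saturated on none.

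Named were the 20 brightest genes, the 25 of largest and 10 of smallest SD, up to 4 genes of largest SD per list, the index genes with 5 partners each, the pairs and the reference genes. Defining members outside that rule (Clec4f, Timd4, Stab2, Glul, Rrm2, Cyp2e1), the steadiest plasma proteins and the members of groups were added after their values were seen. A few genes that the rule names, and 1 pair, are not reported here. The genes, lists and pairs were chosen with earlier results of these data known. Fits used limma 3.58.1 in R 4.3.3 with Benjamini-Hochberg adjustment and were tested on simulated data. Permutation tests used scipy 1.17.1. The mice are separate animals, so p-values measure the spread between animals with 1 array each.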

Additional observations from a re-analysis of the deposited data

Results flagged for a closer look

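Of 194 named genes, 20 (10.3%) had 1 mouse far from the other 5 by Dixon's ratio at its 95% critical value, which chance gives for about 1 in 20 genes; over all 14411 genes it was 773 (5.36%). In mouse 1, 6 of them are read in the dim corner of its array: Gtf2a2 at -2.84, Unkl at -3.55, Banp at -3.84, Nme1 at -1.93, Mast2 at -2.28 and Rin2 at -2.73.

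Mouse 6 stood high for Wdr86 (1.69), Dbp (2.03), Saa2 (7.85), Apol10a (0.75) and Sulf2 (1.98), a sulfatase of heparan sulfate. Mouse 5 stood low for Cyp7b1 (5.31) and C6 (3.73) and high for Hamp2 (3.30). Mouse 3 stood high for Asns (1.40) and Pnpla3 (1.72). Mouse 4 stood high for Padi4 (0.51) and Arntl (2.21). Mouse 2 stood low for Apob (4.72) and Ly6c1 (1.23), an antigen of endothelial and blood cells.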

How the results depend on the processing

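The median SD of 0.214 became 0.515 with normexp background correction and 0.298 with no filter on dim probes, and lay between 0.208 and 0.215 with 1 mouse left out. Genes with an SD over 0.5 numbered 7556 with normexp, 737 in the deposited value table, 3078 with probes well above background on at least 3 of 6 arrays and 7482 with no filter, against 1795 (1687 to 1875 with 1 mouse left out). Genes over 1 numbered 94, 92, 569 and 1462 under the same settings, against 188 (175 to 203). The groups numbered 6 with only the first 50 genes and 27 with more genes taken in, against 15, and 19 with the dim corner left out. Of the 25 genes of largest SD, 19 stayed with the dim corner left out, 10 with normexp and 7 with no filter. With slide as a block, on the 2 slides with 2 control arrays, the SD was 1.07 for Cyp4a14, 3.57 for Mt2, 2.76 for Sparcl1 and 2.52 for Lrtm1; normexp gave smaller SDs, as 1.71 for Igsf23, 1.42 for Lrit1 and 0.94 for Psmc3ip.

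Pairs past the threshold numbered 0 to 3 with 1 mouse left out: 3 without mouse 1 and 0 without any other. Over these sets of 5 mice, which allow only 120 pairings, r was 0.97 to 0.99 for Mt1 and Mt2 and 0.97 to 1.00 for Saa1 and Saa2, so the lost calls say nothing of stability. With the array median as scale and with normexp, 4 pairs passed. Calls on Dbp numbered 0 with array brightness as a covariate, quantile normalisation, normexp or at least 3 of 6 arrays, and 0 without any 1 mouse. Calls on Cyp4a14 numbered 1 with the array median as scale, those on Saa2 3 with a trended robust fit, and those on Thrsp 0 to 2 with 1 mouse left out (2 without mouse 3). Calls on Igfbp1 numbered 2 with the array median and 7249 with normexp, and those on position 2 with the array median, 2 with at least 3 of 6 arrays and 0 to 1 with 1 mouse left out (1 without mouse 1). The cause was not tested. The fit on position with brightness as a covariate was not run. No paired analysis was possible because only 1 group is described. Saturation limits what the brightest genes show, and signal near background what the dimmest show.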
